A study of Mus musculus with 15 samples.

Results

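PGM hypothalami were set against HM hypothalami over all measured genes, without the Control group. Both groups were CD-1 mice, an outbred stock, from which total RNA of the hypothalamus was sequenced on postnatal day 15. Each group had 3 samples, 6 of the 15 samples in the series, and the other 9 were the PGF, HF and Control groups of the same stock, tissue and age. The series concerns thyroid hormone and effects that reach the F2 generation. The labels do not say what the codes PGM and HM stand for, which hormone exposure each group's forebears had, which sex the pups were, or whether a sample was 1 animal; the design text calls the samples of a group biological triplicates. The deposited table held the authors' average RPKM of each group, so both sides of the comparison were 1 number per gene. RPKM counts reads per kilobase of transcript, scaled to the mapped reads of a library. No SD, p-value or replicate check could therefore be given, and a single unusual sample cannot be seen. After the transcripts of each gene name were reduced to their median, 17481 of 24831 gene names (49404 transcripts) reached an average of 1 RPKM across the 5 group columns and were kept. The lowest mean kept was 1 RPKM and the highest left out was 0.999 RPKM.

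Thyroid hormone acts on the brain through nuclear receptors that switch target genes on or off. It reaches neurons through membrane transporters and is activated inside the brain by the deiodinase Dio2, and it is known for its role in myelination and in the timing of postnatal brain maturation. The hypothalamus sets pituitary output through releasing peptides such as Trh and Crh, controls feeding through Agrp, Npy, Pomc and Cartpt neurons, and makes oxytocin and vasopressin. The thalamus lies above it and the striatum and the basal forebrain lie beside and in front of it.

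Most genes had nearly the same average in both groups. The median gene stood at 18.9 RPKM in PGM and 18.4 RPKM in HM. The difference, taken as log2(RPKM + 0.5) in PGM minus that in HM, had a median of 0.04 over the kept genes with quartiles of -0.06 and 0.13, and 78.9% of genes lay within 0.2 of zero. A gene is called higher or lower here where the groups differed by at least 1.5-fold on this scale. By that measure 178 genes (1.02%) were higher and 101 genes (0.578%) were lower in PGM, 1.6% in all. At a 2-fold threshold 21 were higher and 20 were lower. When the 2 columns were scaled to the same upper quartile, the split was 132 higher and 118 lower, and centred on the median gene it was 135 higher and 119 lower, so the surplus of higher over lower genes was smaller under both scalings. Genes of low level passed the threshold most often. The called share was 4.85% between 1 and 3 RPKM and 0.569% at 100 RPKM or more.

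**Figure D1:**
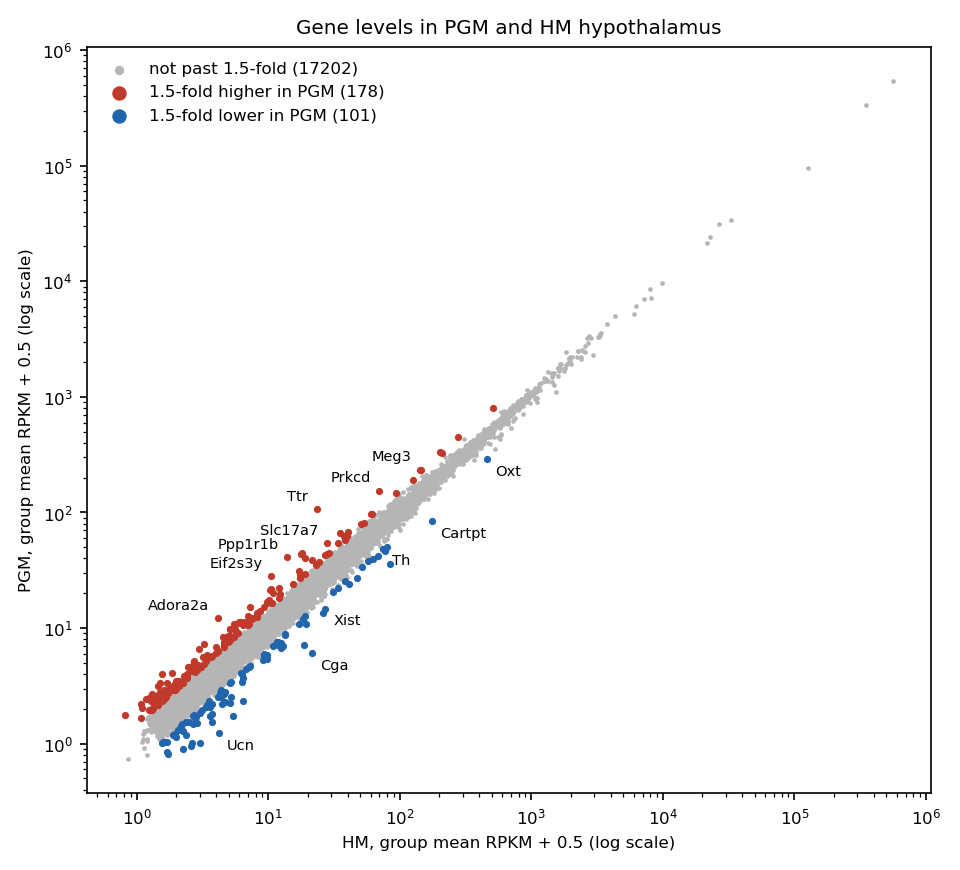
Average level of each kept gene in PGM (y axis) against HM (x axis), as group mean RPKM + 0.5 on log scales. Red points are the 178 genes at least 1.5-fold higher in PGM, blue points the 101 genes at least 1.5-fold lower, and grey points the rest; the cloud follows the diagonal, with Ttr and Adora2a above it and Ucn, Cga and Cartpt below it.

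Sex-linked transcripts differed between the averages. Eif2s3y, a translation initiation factor gene of the Y chromosome, averaged 27.5 RPKM in PGM and 10.1 RPKM in HM (difference 1.40). Ddx3y, a Y-linked RNA helicase, averaged 30.4 RPKM in PGM and 16.8 RPKM in HM. Of 5 distinct kept genes on the Y chromosome 4 were higher in PGM (5 of 6 names, since Kdm5d and Smcy name 1 gene). Xist, the RNA that coats the inactive X chromosome of females, was lower, at 14.2 RPKM in PGM and 26.4 RPKM in HM (difference -0.87), and its antisense partner Tsix moved with it, although reads of the pair cannot be told apart without strand information. Both groups thus held Y-linked RNA and Xist RNA. The number of males and females was not given in the sources used here, so sex and group cannot be told apart in any difference below.

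The listed genes that mark the thalamus all lay on the higher side in PGM. All 22 kept members of this list were above zero, where 60.8% of all genes were. Of the 22, 7 were at least 1.5-fold higher, where 1.02% of all genes were. Their median difference was 0.45, against 0.04 over all genes. The members of this and the other lists were chosen with earlier results of these data known, so such counts describe the lists and test nothing. For the lists below, 0.578% of all genes were at least 1.5-fold lower and 38.8% were below zero. Prkcd (protein kinase C delta, a marker of thalamic relay neurons; chr14:30595353-30626414, GRCm38) averaged 154 RPKM in PGM and 69.2 RPKM in HM, a difference of 1.15. Its 8 transcripts ranged from 1.03 to 1.16. Tnnt1, a troponin T that is also transcribed in thalamus, averaged 20.95 RPKM in PGM and 9.77 RPKM in HM. Ramp3, a partner protein of calcitonin-type receptors, averaged 66.1 RPKM in PGM and 34.4 RPKM in HM. The transcription factor genes of the list went the same way: Gbx2, which specifies thalamic neurons, had a difference of 0.88, and Lef1, an effector of Wnt signalling, one of 0.78. Tcf7l2, its relative and a lasting marker of thalamic neurons, was above zero at 0.56 without reaching 1.5-fold. Grid2ip, a scaffold protein gene, stood at 0.69 and Synpo2, an actin-binding protein gene, at 0.63, the smallest of the 7. In bulk tissue a larger number of such cells and more RNA per cell cannot be told apart. Summed over the list, thalamic markers amounted to 2071 RPKM in PGM and 1594 RPKM in HM. The largest parts of both sums were Calb2, also in the habenula list, and Slc17a6, also in the transmitter identity list. Calb2 averaged 428 RPKM in PGM and 386 RPKM in HM, and Slc17a6 300 RPKM in PGM and 261 RPKM in HM. The part of cells outside the thalamus in the sums was not tested.

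Also higher were 2 GABA-A receptor subunit genes that thalamic neurons use, and the part of thalamic cells in their values was not tested. Gabrd, the delta subunit of extrasynaptic GABA-A receptors, averaged 43.7 RPKM in PGM and 17.5 RPKM in HM (difference 1.29), and Gabra4, a subunit that pairs with it in thalamus, averaged 79.0 RPKM in PGM and 49.8 RPKM in HM (0.66). They were the only 2 of 40 kept GABA and glutamate receptor genes past 1.5-fold, and the list's median of 0.05 was close to that of all genes. Shox2, a homeobox gene expressed in developing thalamus that was picked out after its value was seen, averaged 38.1 RPKM in PGM and 20.9 RPKM in HM.

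Striatal genes formed another higher group. Of 26 kept striatal markers 8 were at least 1.5-fold higher, where 1.02% of all genes were, and none was lower. The median was 0.41, and 21 were above zero, where 60.8% of all genes were. Adora2a, the adenosine receptor of striatal projection neurons (chr10:75316877-75334792), averaged 11.7 RPKM in PGM and 3.62 RPKM in HM, a difference of 1.57. Ppp1r1b, which encodes the dopamine-regulated phosphatase inhibitor DARPP-32 (chr11:98348406-98357796), averaged 40.4 RPKM in PGM and 13.4 RPKM in HM (1.56). Drd1a, the D1 dopamine receptor, averaged 12.2 RPKM in PGM and 6.48 RPKM in HM (0.86). Also higher were the retinoic acid receptor gene Rarb, the G protein subunit gene Gng7, and Serpina9 and Ido1, both with little RNA. The list did not move as a block. Penk, the enkephalin precursor, stood at 0.16 and Drd2, the D2 receptor that shares neurons with Adora2a, at 0.01. Below zero were Tac1, the precursor of substance P, at -0.06, Rgs9 at -0.12, Ptpn7 at -0.12, Isl1 at -0.13 and Slc32a1 at -0.01. Penk, Drd2 and Tac1 are also hypothalamic genes, and the part of hypothalamic cells in these values was not tested.

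Of 23 kept markers of cortical excitatory neurons 4 were higher, where 1.02% of all genes were, and none was lower, with a median of 0.12. Slc17a7, the vesicular glutamate transporter VGLUT1, averaged 53.9 RPKM in PGM and 27.2 RPKM in HM (difference 0.97), and Cck, the cholecystokinin precursor, 231 RPKM in PGM and 144 RPKM in HM (0.68). The kinase gene Itpka stood at 0.72 and the potassium channel gene Kcnh3 at 0.69. Transcription factor genes of the list went both ways, and none reached 1.5-fold. Foxp2 averaged 22.4 RPKM in PGM and 15.8 RPKM in HM (0.49), Mef2c stood at 0.44 and Fezf2 at -0.25. Tbr1 averaged 4.05 RPKM in PGM and 4.04 RPKM in HM, and Neurod6, a factor of cortical excitatory neurons, 1.34 RPKM in PGM and 1.57 RPKM in HM. Markers of the habenula, which caps the thalamus, had no member past 1.5-fold among 14 and a median of -0.07.

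**Figure D2:**
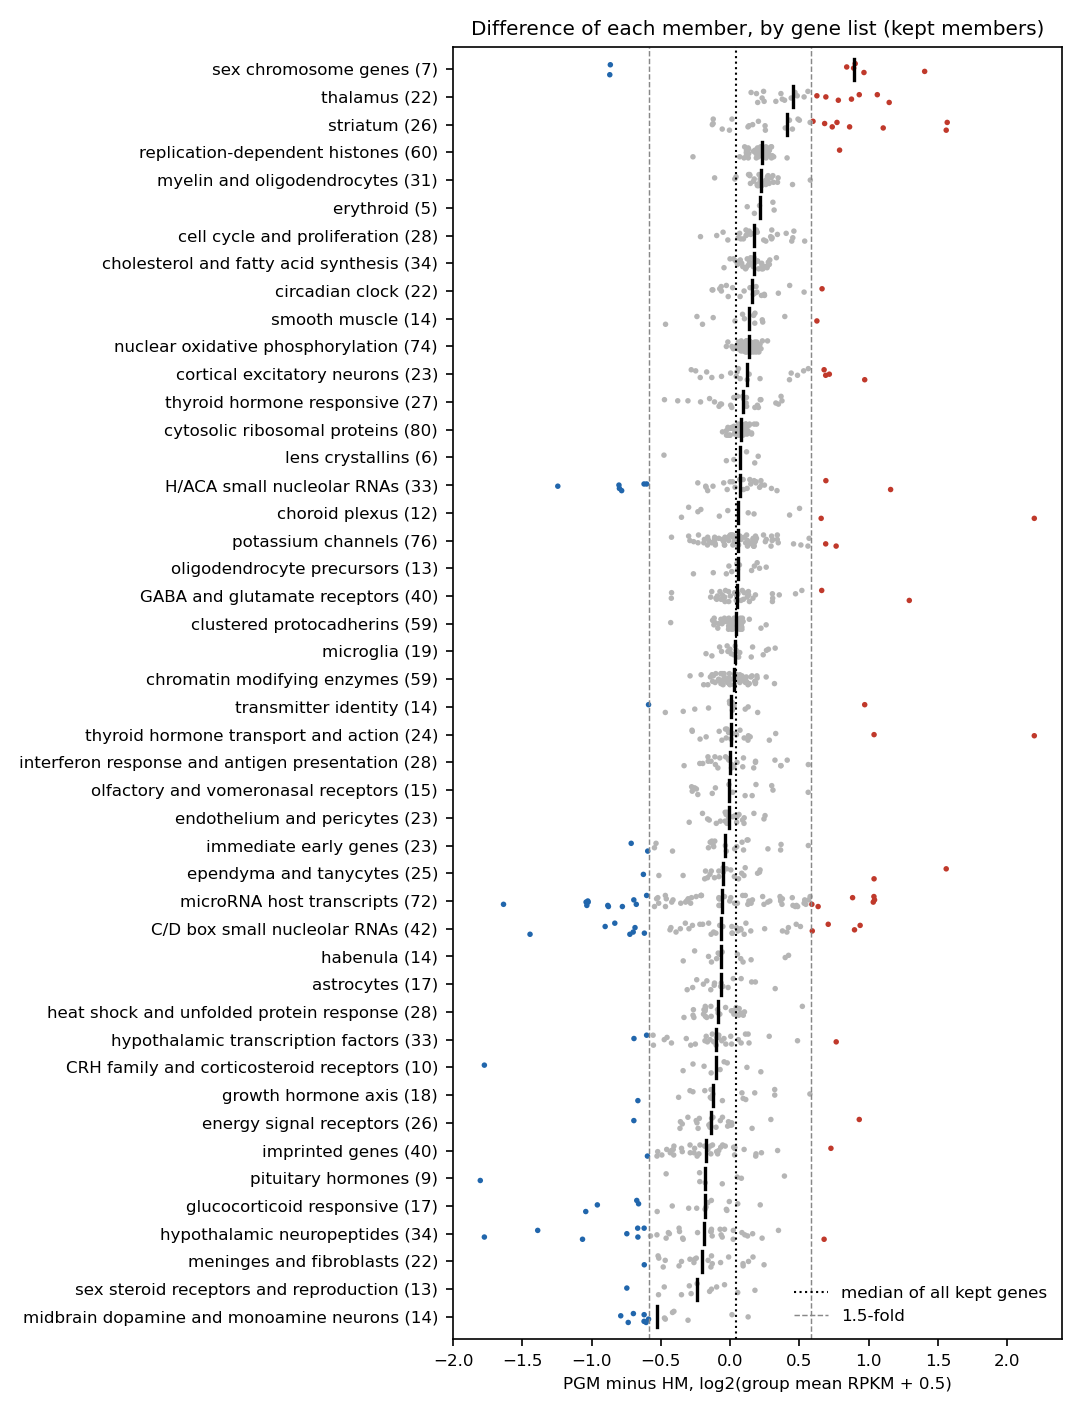
Difference between PGM and HM for every kept member of each gene list with 5 or more kept members, as log2(group mean RPKM + 0.5) in PGM minus that in HM. Points are genes (red at least 1.5-fold higher in PGM, blue at least 1.5-fold lower), black ticks are list medians, the dotted line is the median of all kept genes at 0.04 and the dashed lines mark 1.5-fold; the thalamus list (median 0.45) and the striatum list (0.41) lie to the right and midbrain dopamine and monoamine neurons (-0.53) furthest left.

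The hypothalamus's own peptides ran the other way. Of 34 kept genes in the neuropeptide list, which also holds the enzyme gene Th, 25 were below zero in PGM, where 38.8% of all genes were, 7 were at least 1.5-fold lower and 1, Cck, was higher. The median was -0.19. The feeding peptides are given first. Agrp, the appetite-stimulating peptide of the arcuate nucleus (chr8:105566695-105579845), averaged 6.58 RPKM in PGM and 18.1 RPKM in HM (difference -1.39), and its 2 transcripts had differences of -1.47 and -1.31. Cartpt, which encodes the CART peptide that restrains feeding (chr13:99898483-99910179), averaged 83.5 RPKM in PGM and 175 RPKM in HM (-1.07). Npy, made in the same neurons as Agrp, averaged 69.5 RPKM in PGM and 101 RPKM in HM, and Pomc, the melanocortin precursor, 16.1 RPKM in PGM and 22.4 RPKM in HM. At -0.53 and -0.46 both stayed inside 1.5-fold. The peptides of the lateral hypothalamus differed little. Hcrt, the orexin precursor, had a difference of -0.14 and Pmch, the precursor of melanin-concentrating hormone, one of 0.13.

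Among the neurohypophysial hormones, Oxt (oxytocin; chr2:130574519-130577054) averaged 289 RPKM in PGM and 459 RPKM in HM, a difference of -0.67. Avp (vasopressin; chr2:130580620-130582588) averaged 352 RPKM in PGM and 525 RPKM in HM. Its difference of -0.58 fell just short of 1.5-fold, and it passed when the columns were scaled to the same upper quartile, centred on the median gene or quantile normalized. Of the releasing peptides, Ghrh, which drives growth hormone, averaged 6.755 RPKM in PGM and 11.015 RPKM in HM (-0.67), and Kiss1, which drives gonadotropin-releasing hormone neurons, averaged 1.19 RPKM in PGM and 2.335 RPKM in HM (-0.75). Trh, the head of the thyroid axis, averaged 87.9 RPKM in PGM and 111 RPKM in HM (-0.34), Crh 9.62 RPKM in PGM and 10.6 RPKM in HM (-0.14), and Gnrh1 9.405 RPKM in PGM and 9.69 RPKM in HM (-0.04). None of these 3 reached the threshold. Sst, somatostatin, the inhibitor of growth hormone release, averaged 272 RPKM in PGM and 256 RPKM in HM (0.08). Ucn, which encodes the CRH-family peptide urocortin (chr5:31137989-31138895), averaged 0.73 RPKM in PGM and 3.71 RPKM in HM (-1.78), a large difference at a low level. Npvf, the precursor of the RFamide peptides that inhibit gonadotropin release, was not in the list and was picked out after its value was seen; it averaged 6.91 RPKM in PGM and 12.04 RPKM in HM (-0.76). The higher thalamic and striatal markers stood in the same averages as the lower peptides, and the part of either in the other was not tested.

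Of the 34 list genes, 28 had a promoter in RefSeq (GRCm38.p6), and the 250 bases before the start were searched on both strands for TGACGTCA, the full cyclic AMP response element, through which CREB-family factors activate genes. It was found in 4 of 28 (14.3%), in 2.74% of 10288 kept genes with a promoter and in 1.55% of all 32851 promoters. Those 4 are shown because 3 of them, Cartpt, Ucn and Th, were at least 1.5-fold lower in PGM while Sst was not; they were picked out after their values were seen. Each runs 5′ to 3′ on the gene's own (minus) strand, with the element in capitals, and ends at the transcript start of the RefSeq promoter set, which for Cartpt and Sst lies inside the wider interval annotated for the gene.
Cartpt, chr13:99900684-99900933: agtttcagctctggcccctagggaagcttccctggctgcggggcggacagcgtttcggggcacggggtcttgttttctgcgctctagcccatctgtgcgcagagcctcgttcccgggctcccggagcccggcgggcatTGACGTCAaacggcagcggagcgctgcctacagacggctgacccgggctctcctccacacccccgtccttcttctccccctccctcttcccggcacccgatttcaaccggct
Ucn, chr5:31138896-31139145: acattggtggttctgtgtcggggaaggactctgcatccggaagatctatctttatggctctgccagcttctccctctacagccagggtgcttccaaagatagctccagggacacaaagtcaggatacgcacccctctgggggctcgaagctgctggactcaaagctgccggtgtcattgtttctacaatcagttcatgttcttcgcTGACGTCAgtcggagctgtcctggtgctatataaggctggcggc
Th, chr7:142899996-142900245: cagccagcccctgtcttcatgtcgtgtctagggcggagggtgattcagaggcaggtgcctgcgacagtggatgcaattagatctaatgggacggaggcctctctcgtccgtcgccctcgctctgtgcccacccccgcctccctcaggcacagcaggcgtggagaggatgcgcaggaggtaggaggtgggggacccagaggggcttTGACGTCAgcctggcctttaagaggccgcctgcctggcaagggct
Sst, chr16:23890845-23891094: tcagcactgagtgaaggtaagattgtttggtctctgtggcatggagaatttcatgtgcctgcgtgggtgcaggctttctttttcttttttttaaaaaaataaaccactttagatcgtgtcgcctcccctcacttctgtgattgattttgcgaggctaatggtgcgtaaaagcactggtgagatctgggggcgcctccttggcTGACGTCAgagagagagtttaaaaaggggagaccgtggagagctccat
The element ended 37 bases before the start in Ucn, 38 in Th and 41 in Sst, and 105 bases before it in Cartpt. Among all called genes it was present in 4 of 40 lower genes with a promoter (10%), the fourth being the clone 1700084E18Rik, and in 1 of 88 higher genes (1.14%), Meg3. The TATA core TATAAA, the letters AGGTCA that thyroid hormone receptors recognise and the full palindromic glucocorticoid response element were searched in the same way and were in none of the 4 windows. TATAAA was present in 12.4% of all promoters and 6.49% of those of kept genes, in 16 of 88 higher genes (18.2%) and in 7 of 40 lower genes (17.5%). AGGTCA was present in 14% of all promoters and 10.4% of those of kept genes, in 10 of 88 higher genes (11.4%) and in 8 of 40 lower genes (20%). The glucocorticoid element was present in 0.00913% of all promoters and in no kept gene. A match of letters describes the sequence and does not show that a factor binds there.

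Transcription factors that specify hypothalamic neurons lay on the same side as the peptides. Of 33 kept members 23 were below zero, where 38.8% of all genes were, with a median of -0.10. Only 2 were at least 1.5-fold lower, where 0.578% of all genes were, and 1 was higher. Tbx3, a T-box factor of arcuate neurons, averaged 1.65 RPKM in PGM and 2.98 RPKM in HM, and Six6, a homeobox factor of the ventral hypothalamus and pituitary, 1.83 RPKM in PGM and 3.04 RPKM in HM. Sim1, required for oxytocin and vasopressin neurons, had a difference of -0.55 and Otp, required for the same neurons, one of -0.46, both inside 1.5-fold. Nkx2-1, which marks the ventral hypothalamus broadly, averaged 17.7 RPKM in PGM and 19.2 RPKM in HM (-0.12). Lhx9, a LIM homeobox gene used in thalamus as well as in hypothalamus, averaged 10.755 RPKM in PGM and 6.12 RPKM in HM (0.77).

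Receptors for energy signals had a median of -0.14, with 20 of 26 below zero, where 38.8% of all genes were. Ghsr, the ghrelin receptor, averaged 2.26 RPKM in PGM and 3.97 RPKM in HM (-0.70) and was the one member at least 1.5-fold lower; Ramp3, also in the thalamic list, was the one that was higher. Lepr, the leptin receptor, averaged 2.51 RPKM in PGM and 3.37 RPKM in HM, and Mc4r, the melanocortin receptor, 3.39 RPKM in PGM and 3.44 RPKM in HM. Genes of sex steroid reception and reproduction had 11 of 13 below zero and a median of -0.24, with Kiss1 as the one member past the threshold. Esr1, the oestrogen receptor alpha, averaged 3.845 RPKM in PGM and 5.72 RPKM in HM (-0.52). The growth hormone axis and the CRH family had 1 lower member each, Ghrh of 18 and Ucn of 10.

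Genes of dopamine and other monoamine neurons had a median of -0.53, the lowest of the 46 lists with 3 or more kept members. Of 14 kept members 7 were at least 1.5-fold lower, where 0.578% of all genes were, and 12 were below zero, where 38.8% were. Slc6a3, the dopamine transporter (chr13:73536128-73578672), averaged 45.95 RPKM in PGM and 76.9 RPKM in HM (-0.74). Th, which encodes the rate-limiting enzyme of dopamine synthesis, averaged 48.1 RPKM in PGM and 74.3 RPKM in HM (-0.62), and Slc18a2, the vesicular monoamine transporter, 24.8 RPKM in PGM and 37.6 RPKM in HM (-0.59). The nicotinic receptor subunit gene Chrna6, characteristic of dopamine neurons, went with them at -0.61. Factors of midbrain dopamine neurons were low in both groups except Nr4a2, at 7.18 RPKM in PGM and 9.75 RPKM in HM (-0.42, inside 1.5-fold). The factor gene Lmx1b (0.13) and the receptor gene Drd2 (0.01) were above zero, and En2 stood at -0.30. En1 averaged 1.57 RPKM in PGM and 3.08 RPKM in HM (-0.79), Foxa2 1.04 RPKM in PGM and 2 RPKM in HM (-0.70), and Foxa1 1.04 RPKM in PGM and 1.87 RPKM in HM (-0.62). Hdc, the histamine-forming enzyme of the posterior hypothalamus, averaged 21.45 RPKM in PGM and 29.9 RPKM in HM, inside 1.5-fold. Markers of serotonin and noradrenaline neurons such as Slc6a4, Tph2 and Dbh did not pass the filter on low values. The summed level of the list was 284 RPKM in PGM and 409.5 RPKM in HM.

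**Figure D3:**
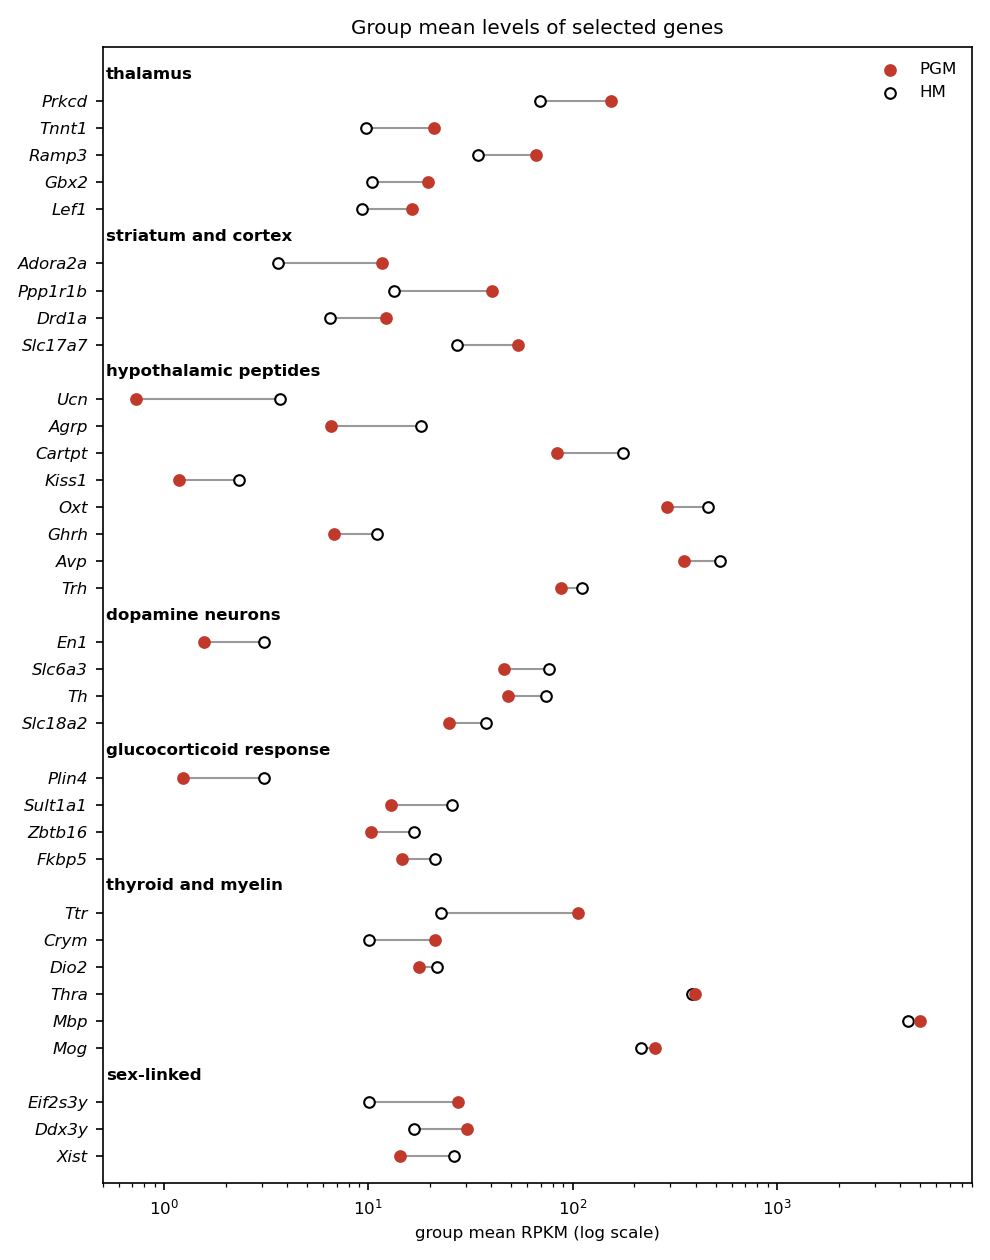
Group mean RPKM (log scale) of selected genes in PGM (filled red) and HM (open), joined by a line, in blocks by role. Thalamic and striatal genes have PGM to the right of HM, peptides, dopamine neuron genes and glucocorticoid-responsive genes have it to the left, and the Thra points nearly coincide; Prkcd, for example, stands at 154 in PGM and 69.2 in HM.

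In the machinery of thyroid hormone action 2 of 24 kept genes were past 1.5-fold, where 1.6% of all genes were. The median of these 24 transport and action genes was 0.01, close to that of all genes. Thra, the main thyroid hormone receptor of brain, averaged 395 RPKM in PGM and 383 RPKM in HM (0.05), and Thrb, the receptor of the feedback loop, 11.97 RPKM in PGM and 11.92 RPKM in HM (0.01). Dio2 averaged 17.7 RPKM in PGM and 21.6 RPKM in HM (-0.28). Slco1c1, the thyroxine transporter of brain vessels, stood at 0.14, Slc7a8 at 0.33, Nr2f1 at 0.28 and Rxra at -0.27. Dio3, the inactivating deiodinase, did not pass the filter on low values. The 2 genes past 1.5-fold were binding proteins. Ttr, transthyretin, a carrier of thyroxine, averaged 106 RPKM in PGM and 22.75 RPKM in HM (2.20), the largest difference among all kept genes. Crym, mu-crystallin, a cytosolic thyroid hormone binding protein, averaged 21.2 RPKM in PGM and 10.1 RPKM in HM (1.04). Iyd, which recovers iodide from iodotyrosines in the thyroid and was picked out after its value was seen, averaged 7.8 RPKM in PGM and 4.03 RPKM in HM.

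Ttr is also the leading transcript of the choroid plexus. Of 12 kept plexus markers 2 were higher, Ttr and 1500015O10Rik (7.4 RPKM in PGM and 4.51 RPKM in HM), and 6 of 12 were above zero, among them Aqp1, a water channel, at 0.50. Folr1, a folate receptor of plexus epithelium, averaged 2.435 RPKM in PGM and 1.68 RPKM in HM, Kcnj13, a potassium channel, 1.75 RPKM in PGM and 2.27 RPKM in HM, and Otx2, the plexus-determining factor, 4.52 RPKM in PGM and 4.8 RPKM in HM. Of 7 more markers under the filter on low values 6 were higher in level in PGM, such as Kcne2, a channel subunit, at 0.53 RPKM in PGM and 0.22 RPKM in HM. The summed list of kept markers was 154 RPKM in PGM and 68.9 RPKM in HM, and without Ttr it was 47.8 RPKM in PGM and 46.15 RPKM in HM. In the other pair of groups Ttr averaged 440 RPKM in PGF and 18.7 RPKM in HF, and Folr1 5.67 RPKM in PGF and 1.56 RPKM in HF. The part of plexus tissue in the Ttr difference was not tested.

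None of 27 kept genes known to respond to thyroid hormone was past 1.5-fold, where 1.6% of all genes were. Their median was 0.09, with 18 above zero, where 60.8% of all genes were. Hr, the hairless corepressor that the hormone induces in brain, averaged 32.7 RPKM in PGM and 28.9 RPKM in HM (0.18), and Klf9, a factor gene the hormone induces, 123.4 RPKM in PGM and 106 RPKM in HM (0.22). The largest differences upwards were Ier5 and Sema7a, both at 0.37, and downwards Aldh1a1 at -0.47, which dopamine neurons also express.

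Myelin genes lay slightly above zero together. Of 31 kept oligodendrocyte genes 30 were above zero, with a median of 0.22, and none reached 1.5-fold. Mbp, myelin basic protein, averaged 4987 RPKM in PGM and 4352 RPKM in HM (0.20), and Mog, a glycoprotein of the outer myelin surface, 252 RPKM in PGM and 217 RPKM in HM (0.22). The phosphatase inhibitor gene Ppp1r14a came closest to the threshold at 0.58, and Apod was the one below zero at -0.11. Oligodendrocyte precursor genes did not share the shift: their median was 0.05 over 13 genes.

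Other cells of the brain differed less. Astrocyte genes had a median of -0.07 over 17 genes, with Gfap, their intermediate filament, at 146 RPKM in PGM and 181 RPKM in HM (-0.31). The median was 0.04 for 19 microglial genes and -0.01 for 23 genes of endothelium and pericytes, with none past 1.5-fold in any of these 3 lists. Genes of meninges and fibroblasts had 17 of 22 below zero and a median of -0.20. Col1a1, a collagen chain, averaged 23.2 RPKM in PGM and 33.35 RPKM in HM (-0.52), and the summed list was 827 RPKM in PGM and 1030 RPKM in HM. Pituitary genes were present in both groups. Gh, growth hormone, averaged 59.7 RPKM in PGM and 62.1 RPKM in HM (-0.06) and Prl, prolactin, 1.75 RPKM in PGM and 1.215 RPKM in HM, while Cga, the subunit shared by the glycoprotein hormones, averaged 5.6 RPKM in PGM and 20.8 RPKM in HM (-1.80). Cga had the lowest difference of all kept genes, and no other of the 9 kept pituitary genes was past 1.5-fold. Ependymal and tanycyte genes had 2 higher members, Ppp1r1b and Crym, which are also given above, and 1 lower, Col23a1, of 25.

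Genes that glucocorticoids induce lay mostly on the lower side in PGM. Of 17 kept members 15 were below zero, 4 were at least 1.5-fold lower and none was higher, with a median of -0.18. Sult1a1, a sulfotransferase (chr7:126672865-126690443), averaged 12.96 RPKM in PGM and 25.7 RPKM in HM (-0.96). Plin4, a lipid droplet protein gene, averaged 1.24 RPKM in PGM and 3.085 RPKM in HM (-1.04), Zbtb16, a zinc finger factor, 10.3 RPKM in PGM and 16.7 RPKM in HM (-0.67), and Pdk4, a kinase that holds back glucose oxidation, 3.47 RPKM in PGM and 5.78 RPKM in HM (-0.66). Fkbp5, the co-chaperone that damps the glucocorticoid receptor, averaged 14.6 RPKM in PGM and 21.2 RPKM in HM (-0.53), inside the threshold. Sgk1 was level at 0.05 and Klf9 above zero. Nr3c1, the glucocorticoid receptor itself, averaged 56.95 RPKM in PGM and 57.8 RPKM in HM. Among immediate early genes, which mark recent neuronal activity, 2 of 23 were lower: Fos averaged 19.95 RPKM in PGM and 30.4 RPKM in HM (-0.60) and Fosb 1.34 RPKM in PGM and 2.52 RPKM in HM (-0.71). Arc stood at 0.09 and Egr1 at -0.11, and the list's median was -0.03. One clock output gene, Dbp, was higher, at 95.9 RPKM in PGM and 60.35 RPKM in HM (0.66), 1 of 22 kept clock genes. The list had 15 members above zero and a median of 0.16. Rora, also in the thalamic list, stood at 0.53, Hlf at 0.43 and Nr1d1 at 0.25, while Clock (-0.01), Arntl (-0.08) and Per1 (-0.03) lay just below zero. Hours of tissue collection were not given in the sources used here.

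Imprinted genes, which are read from 1 parental copy, had 30 of 40 below zero and a median of -0.17. H19, a maternally expressed RNA, averaged 2.93 RPKM in PGM and 4.69 RPKM in HM (-0.60) and was the one lower member. Peg3 averaged 480 RPKM in PGM and 587 RPKM in HM (-0.29) and Nnat 911 RPKM in PGM and 1113 RPKM in HM (-0.29), both paternally expressed. The one higher member was Meg3, a maternally expressed long RNA of the Dlk1-Dio3 cluster (chr12:109540996-109571729), with 234 RPKM in PGM and 141 RPKM in HM (0.73). This depended on the choice of transcript. Its 7 transcripts had differences between 0.18 and 0.73, and the call was lost when their mean or the most abundant transcript was used. Rian, the next long RNA of the cluster, stood at 0.23 and Mirg, which follows it, at -0.13. The paternally expressed genes of the cluster were below zero, Dlk1 at -0.53 (27.1 RPKM in PGM and 39.3 RPKM in HM) and Rtl1 at -0.41. Chromosome 12 had 9 higher and 11 lower genes among 576, 3.47% called, against 1.6% of all kept genes. These calls include Meg3 and, among the short microRNA loci of the cluster, 2 higher and 5 lower.

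The cluster also carries microRNA genes. Among 51 such loci, 23 were kept, and their median was -0.25, with 2 higher (Mir323 and Mir496) and 5 lower (Mir453, Mir1188, Mir341, Mir377 and Mir3070a). These values are reads over the hairpin-sized locus in total RNA, at a few RPKM, and do not measure the mature microRNA. Mir453 averaged 6.48 RPKM in PGM and 12.4 RPKM in HM, Mir1188 2.93 RPKM in PGM and 5.81 RPKM in HM, Mir341 2.17 RPKM in PGM and 4.08 RPKM in HM, and Mir377 1.45 RPKM in PGM and 2.62 RPKM in HM. Outside the cluster the largest difference was at Mir186 (chromosome 3), with 1.23 RPKM in PGM and 4.88 RPKM in HM (-1.64). Over all 72 kept microRNA loci 6 were higher and 11 lower, with a median of -0.06. The mature sequences of the lower cluster loci with at least 2 RPKM in 1 group and of Mir186 are shown from RefSeq (GRCm38.p6), 5′ to 3′, with the seed, bases 2 to 8, in capitals, so that their seeds can be compared.
miR-453: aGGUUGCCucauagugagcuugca
miR-1188-5p: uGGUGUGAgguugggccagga
miR-1188-3p: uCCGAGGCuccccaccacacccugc
miR-341-5p: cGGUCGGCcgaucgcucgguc
miR-341-3p: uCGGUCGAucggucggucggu
miR-377-5p: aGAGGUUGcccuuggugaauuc
miR-377-3p: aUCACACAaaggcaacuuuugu
miR-186-5p: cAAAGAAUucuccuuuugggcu
miR-186-3p: gCCCUAAGgugaauuuuuuggg
Of the 10 called microRNA loci with at least 2 RPKM in PGM or HM, 8 had mature sequences, 14 in all. No 2 of these 14 shared a seed, and the other called loci were not compared.

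Some groups of widely expressed genes lay slightly above zero in nearly every member. Of 74 nuclear genes of oxidative phosphorylation 72 were above zero with a median of 0.14, of 34 genes of cholesterol and fatty acid synthesis 32 with a median of 0.17, and of 60 replication-dependent histone genes 59 with a median of 0.23. Cytosolic ribosomal protein genes had 73 of 80 above zero and a median of 0.08, which came down to 0.0092 in the alternative that moved it most. One gene of these 4 lists, the linker histone gene Hist1h1b, was past 1.5-fold (17.05 RPKM in PGM and 9.65 RPKM in HM). Proliferation genes had 24 of 28 above zero and a median of 0.17. The median gene itself lay 0.04 above zero, and 60.8% of all genes were above zero. Among all genes averaging 100 RPKM or more the median was 0.08, like that of the ribosomal list. Most ribosomal protein and oxidative phosphorylation genes were at that level. Small nucleolar RNAs, which guide modification of ribosomal RNA, scattered in both directions: among H/ACA members 2 were higher and 6 lower of 33, and the median was 0.07 while the mean was -0.03, and among C/D box members 4 were higher and 7 lower of 42. Snora81 averaged 35.1 RPKM in PGM and 83.9 RPKM in HM (-1.24) and Snora2b 6.13 RPKM in PGM and 2.47 RPKM in HM (1.16). These genes are shorter than 1 kilobase, and their reads cannot be told apart from those of host introns.

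Among the 15 largest differences in each direction, several genes belonged to none of these groups. Nt5dc3, a nucleotidase-like gene, averaged 43.4 RPKM in PGM and 17.15 RPKM in HM (1.31). The Wnt receptor gene Fzd10 averaged 14.6 RPKM in PGM and 6.75 RPKM in HM (1.06) and the ligand gene Wnt9b 9.37 RPKM in PGM and 4.58 RPKM in HM (0.96). Arntl2, a paralog of the clock gene Arntl, averaged 3.55 RPKM in PGM and 1.365 RPKM in HM. The lower genes were less abundant. Bfsp2, known as a lens filament gene, averaged 1.73 RPKM in PGM and 4.585 RPKM in HM (-1.19), and Mpeg1, a macrophage pore-forming protein gene, 3.19 RPKM in PGM and 5.94 RPKM in HM (-0.80). The carboxylesterase gene Ces1d and Plunc, a secreted airway protein gene, were under 1 RPKM in PGM and at 2.1 RPKM and 2.14 RPKM in HM. Among genes picked out once the values were known, Alb, serum albumin, averaged 8.45 RPKM in PGM and 12.96 RPKM in HM (-0.59), and Serpina1c, an antitrypsin gene, 2.3 RPKM in PGM and 4.22 RPKM in HM (-0.75). Glo1, the methylglyoxal-detoxifying glyoxalase (chr17:30592861-30612659), was among the most abundant higher genes with 332 RPKM in PGM and 201 RPKM in HM (0.72). Of its kept neighbours within 600 kb, Btbd9 stood at 0.16, Zfand3 at 0.12, Gm6402 at 0.04, Glp1r at 0.29 and Abcg1 at 0.00, none past 1.5-fold. Dnahc8, which directly follows Glo1 and was under the filter on low values, averaged 0.785 RPKM in PGM and 0.465 RPKM in HM.

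PGF and HF are another pair of groups in the series whose codes begin like these, and they share no sample with PGM and HM. Across the 17481 genes the difference between PGF and HF had a Pearson r of 0.42 and a Spearman rho of 0.44 with that between PGM and HM, given as a description since genes are not independent and the 5 groups share 1 workflow. Of the 178 genes higher in PGM than HM, 135 (75.8%) were above zero in PGF against HF, where 36.5% of all genes were. Of the 101 lower genes 86 (85.1%) were below zero there, where 63.2% of all genes were. At 1.5-fold, 79 genes were higher in both comparisons, 44.4% of the PGM list and 25.4% of the PGF list (1.78% of all genes were higher in PGF), and 27 were lower in both, 26.7% of the PGM list and 10.3% of the PGF list (1.5% of all genes were lower in PGF). Thalamic genes had a median of 0.45 between PGM and HM and 0.70 between PGF and HF, where 20 of 22 were above zero and 13 were at least 1.5-fold higher. Prkcd averaged 156 RPKM in PGF and 38.2 RPKM in HF. Agrp was lower in both, with a difference of -1.70 between PGF and HF, as were Oxt (-0.99) and Cartpt (-0.72). Eif2s3y was higher and Xist lower in both, at 1.20 and -1.57 between PGF and HF.

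Other groups had unlike values in the pairs. Striatal genes had a median of 0.41 between PGM and HM and -0.07 between PGF and HF, and Adora2a stood at 1.57 in the first pair and -0.30 in the other. Myelin genes had a median of 0.22 between PGM and HM and 0.79 between PGF and HF, with 24 of 31 at least 1.5-fold higher in PGF. Dopamine neuron genes had a median of -0.53 between PGM and HM and -0.33 between PGF and HF. In all 12 genes were past 1.5-fold in opposite directions. Crym averaged 7.96 RPKM in PGF and 13.9 RPKM in HF, and Cga 170 RPKM in PGF and 18.9 RPKM in HF. Summed over the 7 kept pituitary genes other than Chga and Scg2, which neurons also express widely, the level was 87.9 RPKM in PGM and 112 RPKM in HM, and 2025 RPKM in PGF and 58.6 RPKM in HF, and the part of pituitary tissue in the Cga values was not tested. Fggy, a carbohydrate kinase gene, averaged 5.205 RPKM in PGM and 8.785 RPKM in HM, but 5.835 RPKM in PGF and 1.155 RPKM in HF. Snora81 and 3 other H/ACA RNAs, Snora47, Snora69 and Snora36b, were lower in PGM than HM and higher in PGF than HF. With 1 average per group, no test of the difference between the pairs could be made.

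**Figure D4:**
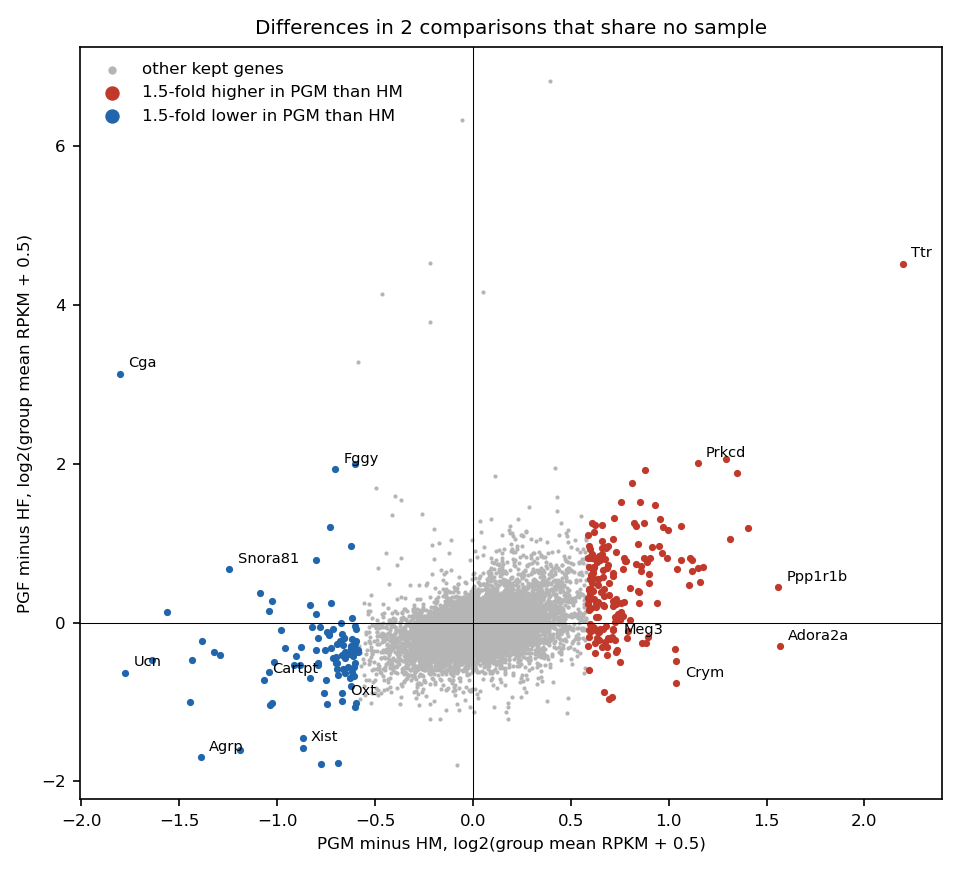
Difference between PGF and HF (y axis) against that between PGM and HM (x axis) for each kept gene, both as log2(group mean RPKM + 0.5). Red and blue points are genes at least 1.5-fold higher or lower in PGM than HM; 135 of 178 red points lie above zero and 86 of 101 blue points below it, with Cga, Fggy and Snora81 at upper left and Crym and Adora2a at lower right.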

How the data were processed

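Total RNA sequencing of 15 samples in 5 groups of 3 was deposited as 1 table. Its values are RPKM that the authors averaged over the samples of each group, to 2 decimals, per the file headers, for transcripts with gene names. Reads were checked with FastQC and aligned with Novoalign 2.08 to mm10, per the submitters' processing notes. The counting program, its treatment of strand and shared reads, and its depth per sample were not given in the sources used here, so the depth is unknown and no interval is given. Near-identical genes (Hbb-b1 and Beta-s) and antisense pairs are uncertain as single genes, and Smcy and Kdm5d are 1 gene listed under 2 names.

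From these deposited RPKM values, 1 repeated header line was dropped, the median over transcripts was taken per gene name (11394 names had more than 1), and genes averaging 1 RPKM or more across the 5 columns were kept. Differences are log2(RPKM + 0.5), which understates those of low genes; the call is 1.5-fold, with no test. Limma and other tests planned for sample values could not be used. The steps were run on group means simulated from the HM values with known differences and little random spread. Such a run checks the code and cannot show how often the 1.5-fold call errs on these averages.

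Named genes are the 15 largest differences in each direction with at least 2 RPKM in PGM or HM (leaving out names without function and small RNAs), 29 fixed hypothalamic and thyroid genes, and the 4 largest differences of each of 47 lists; some are given only as part of their list's counts, and others were picked out once their values were known. Some genes that the rule takes are left out of the text and not reported here. The lists overlap, and 11 names were found by synonym and 8 were not found. None of the Hox genes, a check for hindbrain or spinal tissue, passed the filter. Members and lists were chosen with earlier results of these data known. Positions, promoters and microRNAs are RefSeq's (GRCm38.p6, the assembly called mm10); 15285 kept names (87.4%) matched. Python 3.11.15, numpy 2.4.6, pandas 2.3.3 and matplotlib 3.10.9 were used.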

Additional observations from a re-analysis of the deposited data

How the results depend on the processing

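No paired analysis was possible because the table holds group averages only, and leaving out a replicate was not run for the same reason. The 178 higher and 101 lower genes became 291 and 210 with no filter on low values, 104 and 58 with a mean of at least 3 RPKM, and 21 and 20 at 2-fold. They were 253 and 139 with 0.1 RPKM added, 122 and 71 with 1 RPKM added, 176 and 100 with the mean over transcripts, 183 and 103 with the most abundant transcript, and 154 and 107 after quantile normalization. A filter of 3 RPKM moved the list median to -0.0477 for choroid plexus, 0.1773 for lens crystallins and 0.1079 for olfactory and vomeronasal receptors, and no filter moved that of midbrain dopamine and monoamine neurons to -0.4062. The other list medians moved by less than 0.1 in these alternatives. Medians near zero changed sign or reached zero in some of them, most often transmitter identity (6 of 10) and interferon response genes (5 of 10); these lists were those of GABA and glutamate receptors, both kinds of small nucleolar RNA, microRNA loci, choroid plexus, endothelium, microglia, immediate early genes, interferon response, chromatin enzymes, protocadherins, olfactory receptors, transmitter identity and thyroid hormone transport and action. No called named gene changed direction. With 1 RPKM added, 86 of 279 calls were lost, 8 of them of genes taken by the naming rule: Fos, Foxa1, Foxa2, Six6, H19, Slc18a2, Col23a1 and Asgr1. Alb, Ido1, Mir377, Mir3070a and Snora36b were also among the 86. Synpo2 lost its call under upper quartile scaling. The depth behind the averages is unknown, and differences of genes under 3 RPKM are the least certain.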

Other observations

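Of the lists not described above, some had medians near that of all genes, 0.04, and others did not. Clustered protocadherin genes, which give neurons their surface identity, had a median of 0.04 over 59 genes with none past 1.5-fold, chromatin modifying enzymes 0.03 over 59 genes with none, and interferon response and antigen presentation genes 0.00 over 28 genes with none. Heat shock and unfolded protein response genes had a median of -0.09 over 28 genes. Potassium channel genes had a median of 0.05 over 76 genes with 2 higher, Kcnj4 at 16.0 RPKM in PGM and 9.22 RPKM in HM and Kcnh3. Genes of transmitter identity had 1 higher, Slc17a7, and 1 lower, Slc18a2, of 14. Smooth muscle genes had 1 higher of 14, Synpo2, also in the thalamic list, and a median of 0.14. Below zero were Acta2 at -0.20, Myh11 at -0.24, Myl9 at -0.12 and Sncg at -0.47, and the other kept members were above zero. Erythroid genes were all 5 above zero with a median of 0.21, and their summed level was 2824 RPKM in PGM and 2329 RPKM in HM. The median and the mean of a list had opposite signs, both near zero, for ependymal and tanycyte genes (-0.05 and 0.04), transmitter identity (0.01 and -0.03) and olfactory and vomeronasal receptors (-0.01 and 0.01). Of the 279 called genes 181 were in none of the 47 lists.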
